A study of Mus musculus with 10 samples.

Results

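Long noncoding RNAs that host small nucleolar RNAs (snoRNAs) were described in male mouse embryonic stem cells (mESCs). The set names 7 genes, Gas5, Snhg1, Snhg3, Snhg5, Snhg6, Snhg8 and Snhg12, and its members are the rows of the deposited expression table that carry these names. Of the 7 names, 3 had a row among the 25965 features: Gas5, Snhg3 and Snhg12. Snhg1, Snhg5, Snhg6 and Snhg8 were not analysed here. All 3 members with a row were well above the low-value filter in every library.

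The RNA-seq libraries come from mESC lines of strain C57/Bl6, labelled male, grown in 2i/LIF, a medium with inhibitors of MEK and GSK3 that keeps mESCs in the naive state. The study derived 2 independent lines under the Keniry2022 method, took libraries at passage 0 (p0), and then kept each line to passages 10 and 20 (p10 and p20) under either of 2 methods. Under Keniry2022 (labels New and Off) cells grew in suspension and were passaged daily. Under Mulas2019 (labels Old and On) they grew attached to gelatin and were passaged on alternate days. Plating density and media volumes were also higher under Keniry2022. Each of the 5 groups (p0, p10 Keniry2022, p20 Keniry2022, p10 Mulas2019, p20 Mulas2019) held 2 libraries. Every group thus shares the derivation method, strain and medium, p20 Keniry2022 and p10 Mulas2019 are matched in days of culture, and the 4 libraries of a method are 2 lines at 2 passages, not 4 derivations. The comparisons ask how the culture method, and time in culture, change the transcriptome of male mESCs.

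Totals lay between 24053996 and 30236823 reads per library. The libraries expressed mESC markers (summed RPKM of 8 markers such as Pou5f1, Sox2 and Nanog, 1298 to 1749), while 6 fibroblast and 6 primitive endoderm markers summed to at most 1.82 RPKM in any library. Of 6 trophoblast markers 2 were high enough to test, Eomes and Tfap2c, and both were lower under Keniry2022 (log2 difference -0.40 and -0.34), with summed levels of 22.7 to 27.1 RPKM under Keniry2022 and 28.0 to 35.3 under Mulas2019. The mean log2 RPKM of Tfap2c was 4.44 under Keniry2022 and 4.78 under Mulas2019, and that of Eomes was 0.97 and 1.37. Tfap2c thus made up most of these sums, and they do not show that trophoblast cells were present. Whether such cells had a part in the results below was not tested. The RNA of 4 Y-linked genes (Ddx3y, Eif2s3y, Kdm5d and Uty) was near 0 in 5 of the 10 libraries, 1 in each group, although all are labelled male, and the study describes a line that lost its Y chromosome while being derived. Summed RPKM was 0.114 to 1.19 in these 5 and 34.2 to 62.8 in the other 5. The low libraries were replicate 1 in 4 groups and replicate 2 in p20 Keniry2022, where the numbers may be exchanged. The p0 pair was the least alike, with an SD of the log2 difference between its 2 libraries of 0.611 over all features tested, against 0.23 to 0.265 in the other 4 groups.

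Many snoRNAs guide the chemical modification of ribosomal and other RNAs, box C/D snoRNAs directing 2′-O-methylation and box H/ACA snoRNAs directing pseudouridylation. Most mammalian snoRNAs are cut from the introns of a host transcript, and in the hosts described here the spliced exons encode no known functional protein. Host RNAs of this family commonly start with a terminal oligopyrimidine (5′TOP) tract, as do mRNAs for ribosomal proteins, and spliced Gas5 RNA is translated briefly and then degraded by nonsense-mediated decay (NMD), so that its level rises when translation slows. Gas5 was named for its accumulation in growth-arrested cells.

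Gas5 lies on chr1:161034422-161038539, plus strand (mm10), and GENCODE vM21 annotates 9 snoRNA loci in its span. Snhg12 lies on chr4:132308678-132311024, plus strand, with 4 loci, and Snhg3 on chr4:132348014-132353686, minus strand, with 2 loci. None of these snoRNAs had a row of its own. GENCODE gives Gas5 and Snhg3 as processed transcripts and Snhg12 as a lincRNA. By letters alone, 7 of the 9 Gas5 loci hold a C box TGATGA followed by a D box CTGA, the 2 Snhg3 loci end in an ACA box, and Snhg12 has 1 locus of the first kind and 2 of the second. A few of these snoRNAs are printed to show what each host carries, from GENCODE vM21 (GRCm38) in the orientation of the host, with the boxes in capitals.
Snord47 (Gas5): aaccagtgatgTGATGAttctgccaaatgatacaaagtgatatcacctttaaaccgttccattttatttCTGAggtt
Snord80 (Gas5): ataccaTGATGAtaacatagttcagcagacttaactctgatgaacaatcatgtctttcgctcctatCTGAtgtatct
Snord99 (Snhg12): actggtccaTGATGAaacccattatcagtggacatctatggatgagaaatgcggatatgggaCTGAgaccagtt
Snora61 (Snhg12): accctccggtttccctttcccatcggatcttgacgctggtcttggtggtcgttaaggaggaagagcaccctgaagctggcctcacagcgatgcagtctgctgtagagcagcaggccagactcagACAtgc
Snora73a (Snhg3): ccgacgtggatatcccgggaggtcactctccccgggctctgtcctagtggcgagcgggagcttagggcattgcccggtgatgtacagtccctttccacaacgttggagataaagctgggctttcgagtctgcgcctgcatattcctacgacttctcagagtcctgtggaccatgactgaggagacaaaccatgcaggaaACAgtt
The hosts differ in the kind of snoRNA they carry: Gas5 box C/D, Snhg3 box H/ACA, and Snhg12 both. In GENCODE vM21 every locus of Gas5 and Snhg12 falls inside an annotated exon of some transcript of its host, and no Snhg3 locus does so wholly (159 of the 205 bases of Snora73a do). The Gas5 row was counted over 3760 exon bases, as many as in this annotation, whose exons take in all 9 loci. Its level can thus include reads over the snoRNAs and not only spliced host RNA. The Snhg12 row was counted over 1626 exon bases, fewer than the 2402 in this annotation, so whether it includes reads over the 4 loci is not known.

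The promoter windows, from 250 bases before to 50 bases after the RefSeq start (GRCm38.p6), are printed because the start sequence is what the hosts and the 5′TOP mRNAs described later are known to have in common. RefSeq gives Gas5 2 starts, and the second, chosen because it holds matches to the letters searched, is shown. The window of the first, which lies nearest the start of the counted span, holds none of them. The letters TATATA were searched on both strands as a variant TATA box. So were those of the standard box, TATAAA, which can overlap the first, the cAMP response element TGACGTCA and the E-box CACGTG. The pyrimidine run CCTTTC was searched on the strand of the gene within 10 bases of the start. Matches are in capitals.
Gas5, chr1:161034916-161035215, plus strand: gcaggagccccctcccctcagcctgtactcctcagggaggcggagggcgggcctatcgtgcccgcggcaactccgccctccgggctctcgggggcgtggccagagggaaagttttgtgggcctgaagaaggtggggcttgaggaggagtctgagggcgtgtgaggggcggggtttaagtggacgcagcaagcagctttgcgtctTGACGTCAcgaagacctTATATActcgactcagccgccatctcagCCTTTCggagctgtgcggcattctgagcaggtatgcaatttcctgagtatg
Snhg12, chr4:132308428-132308727, plus strand: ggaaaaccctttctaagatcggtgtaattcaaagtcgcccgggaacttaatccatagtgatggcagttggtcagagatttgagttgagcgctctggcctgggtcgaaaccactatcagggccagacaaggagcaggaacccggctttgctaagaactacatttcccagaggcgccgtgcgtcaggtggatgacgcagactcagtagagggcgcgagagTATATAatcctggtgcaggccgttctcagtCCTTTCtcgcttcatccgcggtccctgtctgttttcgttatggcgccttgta
Snhg3, chr4:132353637-132353936, minus strand: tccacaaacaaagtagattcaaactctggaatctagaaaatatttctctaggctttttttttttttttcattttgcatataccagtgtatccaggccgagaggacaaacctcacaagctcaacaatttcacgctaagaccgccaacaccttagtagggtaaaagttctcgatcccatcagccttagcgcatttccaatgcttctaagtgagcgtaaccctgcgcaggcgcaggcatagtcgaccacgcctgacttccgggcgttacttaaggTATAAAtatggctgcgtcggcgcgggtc
The second Gas5 start and Snhg12 have the same pair of motifs nearby: TATATA 29 and 32 bases before it and CCTTTC from 1 and 2 bases before it. Over 32851 promoter windows, TATATA lay 40 to 10 bases before the start in 1.02%, CCTTTC lay at the start in 1.03%, and both did in 0.0213% (7 windows). The Gas5 window also holds TGACGTCA 46 bases before the start, found in 1.79% of windows. Snhg3 has neither of the paired motifs; its window holds TATAAA 22 bases after the start, a sequence found somewhere in 13.6% of windows. CACGTG, in 7.15% of windows, was in none of the 3. A match of letters is a description of the window and no evidence that a factor binds.

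Levels are given as log2 RPKM (reads scaled to exon length and library size), in which a difference of 1 is a 2-fold change, and Gas5, the best covered member, had 6744 to 15038 reads per library. Gas5 was at 7.38 and 6.62 in p0 (replicates 1 and 2), 6.08 and 6.04 in p10 Keniry2022, 6.06 and 5.93 in p20 Keniry2022, 6.48 and 6.13 in p10 Mulas2019, and 6.18 and 6.31 in p20 Mulas2019. Both p0 libraries lay above the other 8, and all 4 Keniry2022 libraries lay below all 4 Mulas2019 libraries. In order of the group means, p0 (6.996) was followed by p10 Mulas2019 (6.31), p20 Mulas2019 (6.25), p10 Keniry2022 (6.06) and p20 Keniry2022 (5.99), and within each method the 2 passages overlapped.

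Snhg3, which carries the 2 Snora73 snoRNAs, had 742 to 1904 reads per library. Its log2 RPKM was 6.33 and 5.16 in p0, 4.84 and 4.94 in p10 Keniry2022, 4.86 and 4.87 in p20 Keniry2022, 4.956 and 5.004 in p10 Mulas2019, and 5.02 and 5.05 in p20 Mulas2019. Apart from p0 replicate 1, all 9 libraries lay within a narrow band, with the 4 Keniry2022 libraries at its lower end and p0 replicate 2 at its upper end. The order of means was p0 (5.74), p20 Mulas2019 (5.03), p10 Mulas2019 (4.98), p10 Keniry2022 (4.89) and p20 Keniry2022 (4.87), and the last 2 overlapped.

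Snhg12, host of snoRNAs of both kinds, had 654 to 1292 reads per library. Its log2 RPKM was 5.05 and 4.12 in p0, 3.95 and 3.92 in p10 Keniry2022, 3.85 and 3.77 in p20 Keniry2022, 4.733 and 4.604 in p10 Mulas2019, and 4.26 and 4.40 in p20 Mulas2019. The 2 p0 libraries stood on either side of all 4 Mulas2019 libraries, and the 4 Keniry2022 libraries were the lowest of the 10. The order of means was p10 Mulas2019 (4.67), p0 (4.58), p20 Mulas2019 (4.33), p10 Keniry2022 (3.94) and p20 Keniry2022 (3.81), in which p0 overlapped both Mulas2019 groups and the 2 passages of each method did not overlap. From p10 to p20 the mean fell by 0.34 under Mulas2019 and fell by 0.13 under Keniry2022, differences that were not tested singly.

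**Figure D1:**
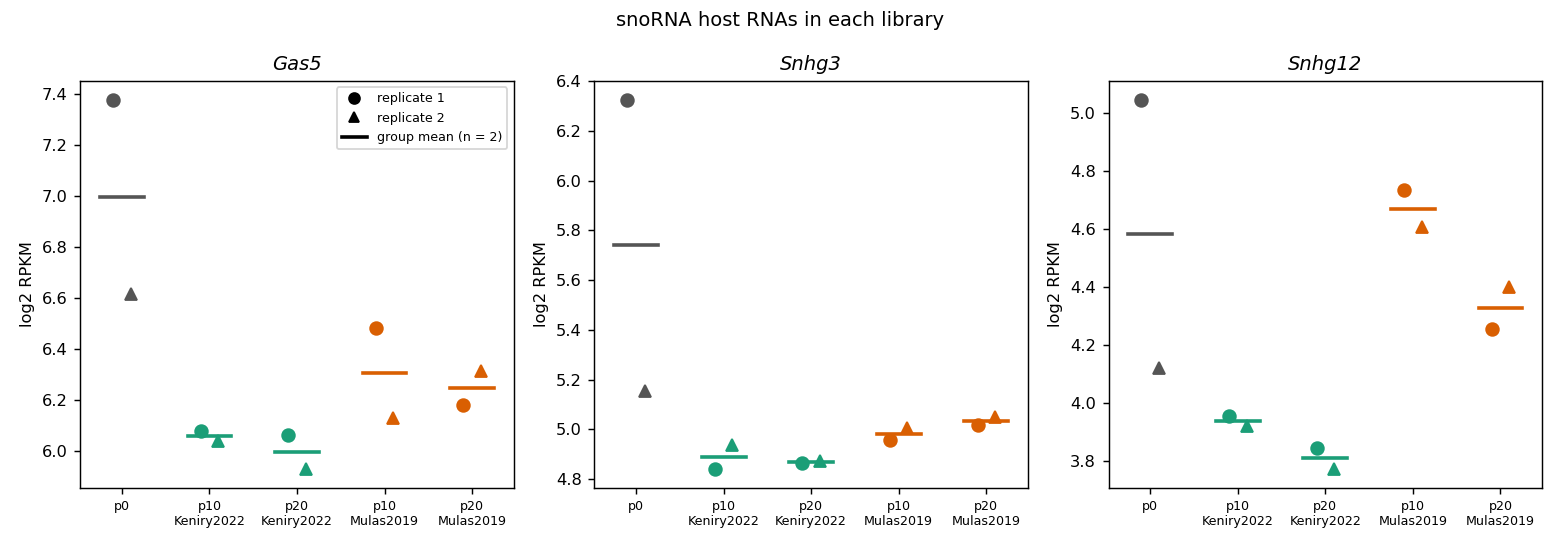
log2 RPKM (y axis) of Gas5, Snhg3 and Snhg12 in the 10 libraries by group (x axis), with circles for replicate 1, triangles for replicate 2 and a line at the mean of each group (n = 2). The y axes differ between panels and do not start at 0. In every panel p0 replicate 1 is the highest point and the 4 Keniry2022 libraries lie below the 4 Mulas2019 libraries.

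On the RPKM scale, which allows genes to be compared, Gas5 was the most abundant of the 3 in every library. Gas5 lay between 60.9 and 67.5 RPKM under Keniry2022 and between 69.9 and 89.4 under Mulas2019. Snhg3 lay between 28.6 and 30.6 and between 31.0 and 33.1, and Snhg12 between 13.6 and 15.5 and between 19.1 and 26.6, respectively. At p0 the 2 libraries were at 166 and 98.1 RPKM for Gas5, 80.3 and 35.6 for Snhg3, and 33.0 and 17.4 for Snhg12.

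The first comparison set the 4 Keniry2022 libraries against the 4 Mulas2019 libraries, p10 and p20 pooled following its own analysis. All 3 members were lower under Keniry2022, by the most in Snhg12. Of all 11654 features tested, 51.5% were called in this comparison and 25.5% were called lower under Keniry2022, and the median difference over all features was -0.003. With that many features on the same side, the calls of the members are to be read one by one and do not set the members apart as a group.

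Snhg12 was at a mean of 3.87 ± 0.082 (SD, n = 4) under Keniry2022 and 4.50 ± 0.212 (n = 4) under Mulas2019. The log2 difference was -0.63 (SE 0.093, 95% confidence interval -0.83 to -0.42, adjusted p = 0.000465, limma), a level 0.648 times that under Mulas2019. Gas5 was at 6.03 ± 0.067 and 6.28 ± 0.159, a difference of -0.25 (SE 0.072, interval -0.41 to -0.09, adjusted p = 0.0146, limma) or 0.841 times. Snhg3 was at 4.88 ± 0.042 and 5.01 ± 0.038, a difference of -0.13 (SE 0.036, interval -0.21 to -0.05, adjusted p = 0.014, limma) or 0.915 times. For each member the 4 Keniry2022 libraries all lay below the 4 Mulas2019 libraries, as they did for 23.4% of all features tested. In these bulk samples a smaller share of cells that express a host and less of its RNA per cell cannot be told apart.

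These calls rest on the spread within a method. When the same contrast was taken in the model of all 10 libraries, whose shared estimate of the spread includes the unlike p0 pair, the differences were the same but the adjusted p was 0.0439 for Snhg12, 0.299 for Gas5 and 0.698 for Snhg3 (limma). No call of a member was lost when any 1 of the 8 libraries was left out, where 43.6% to 49.3% of all features were called. The differences then ran from -0.71 to -0.55 for Snhg12, -0.30 to -0.18 for Gas5 and -0.15 to -0.11 for Snhg3.

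The direction was the same in libraries with and without Y-linked RNA. In libraries with it, the difference (Keniry2022 minus Mulas2019) at p10 and p20 was -0.68 and -0.55 for Snhg12, -0.09 and -0.25 for Gas5, and -0.07 and -0.18 for Snhg3. In libraries without it, the values were -0.78 and -0.49 for Snhg12, -0.40 and -0.25 for Gas5, and -0.12 and -0.15 for Snhg3. Each of these 12 values compares 1 library with 1 library, and no test was made.

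By passage, in the model of 5 groups, none of the 3 members was called, and the sign was negative throughout. At an unadjusted p under 0.05 stood 1 member at p10, 0 at p20 and 1 in the comparison matched in days, Snhg12 in both cases. Of the 11561 features tested, 3121, 2238 and 2712 stood there in the same order. At p10 the difference was -0.73 for Snhg12 (adjusted p = 0.113, limma), -0.25 for Gas5 (0.524) and -0.09 for Snhg3 (0.879), where 8.53% of features were called. At p20 it was -0.52 for Snhg12 (adjusted p = 0.308, limma), -0.25 for Gas5 (0.597) and -0.16 for Snhg3 (0.815), where 2.15% were called. Between p20 Keniry2022 and p10 Mulas2019, which are matched in days, it was -0.86 for Snhg12 (adjusted p = 0.0842, limma), -0.31 for Gas5 (0.459) and -0.11 for Snhg3 (0.863), where 6.43% were called.

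Without the p0 libraries in the model, Snhg12 was called lower under Keniry2022 at p10 (adjusted p = 0.000191, limma), at p20 (0.00138) and between the groups matched in days (0.000296), at unchanged differences. In the same model Snhg3 was called at p20 (adjusted p = 0.0278, limma) and Gas5 between the groups matched in days (0.0418). This model called 48.3% of all features at p10, 36.7% at p20 and 43.4% between the groups matched in days. The method difference itself did not pass the test for a change between p10 and p20 in any member, nor in any other feature, with 0 of 11561 called (limma). At an unadjusted p under 0.05 stood 405 features and no member, and with library quality weights 72 features and no member were called. The interaction was 0.21 for Snhg12 with an interval of -0.61 to 1.03, so that changes as large as the method difference are within it.

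**Figure D2:**
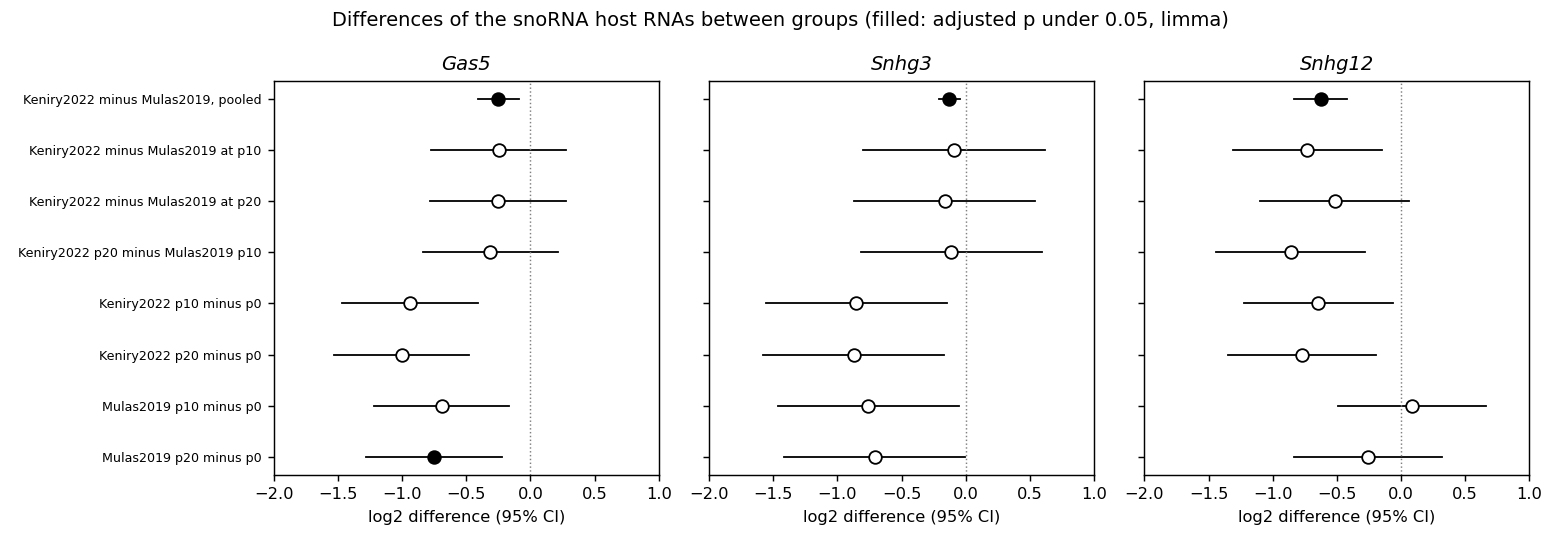
log2 differences (x axis, with 95% confidence intervals from limma) of Gas5, Snhg3 and Snhg12 in 8 comparisons (y axis), with filled points for an adjusted p under 0.05. All 3 pooled differences are filled and negative, Gas5 is also filled for Mulas2019 p20 against p0, and the intervals of the lower 7 comparisons are wider because their model includes the p0 pair.

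Against p0, 1 of the 12 differences of the members passed the test, that of Gas5 at Mulas2019 p20, and the values rest on p0 replicate 1. Under Keniry2022, Gas5 differed from p0 by -0.94 at p10 and -1.003 at p20, Snhg3 by -0.85 and -0.87, and Snhg12 by -0.65 and -0.78. None passed the test (adjusted p 0.11 to 0.183, limma), where 0.199% of features were called at each passage. All 3 had an unadjusted p under 0.05 (limma) at both passages, as did 2860 of the 11561 features tested at p10 and 3237 at p20. Under Mulas2019, Gas5 differed by -0.69 at p10 (adjusted p = 0.0503, limma, and 0.0414 with the replicate number as a block). With the p20 Keniry2022 numbers crossed in that block, 0 members and 29.8% of all features were called at Mulas2019 p10. Gas5 was called lower at Mulas2019 p20, by -0.75 (adjusted p = 0.0442, limma). The call at p20 was lost in 13 of 17 alternatives, quantile normalization among them (-0.44, adjusted p = 0.0729). Snhg3 differed by -0.76 and -0.71 (adjusted p = 0.0848 and 0.105, limma). Snhg12 differed by 0.09 and -0.26 (adjusted p = 0.796 and 0.434, limma). The share of features called was 33% at p10 and 29.3% at p20 under Mulas2019, and 14.6% of features were called lower at p20, as Gas5 was. These comparisons share the p0 libraries and are not independent of each other.

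The gap between the 2 p0 libraries (replicate 1 minus replicate 2) was 0.76 for Gas5, 1.17 for Snhg3 and 0.93 for Snhg12, against a median of 0.024 over all features. As large a gap was found in 6.31%, 0.908% and 3.11% of features, respectively. p0 replicate 1 was the highest of the 10 libraries for 3 of 3 members, and for 35.3% of all features. Both p0 libraries lay above the other 8 for Gas5 and Snhg3, as for 13.2% of all features, and not for Snhg12.

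Without p0 replicate 1, the differences of Gas5 and Snhg3 were smaller and the calls changed. The share of all features called was then 5.23% at Keniry2022 p10, 4.61% at Keniry2022 p20, 40.5% at Mulas2019 p10 and 37.5% at Mulas2019 p20. Gas5 was then called lower than p0 under Keniry2022, by -0.56 at p10 (adjusted p = 0.0482, limma) and -0.62 at p20 (0.0384), but not under Mulas2019 at p10 (-0.31, adjusted p = 0.0861) or p20 (-0.37, 0.0519). Snhg3 was called lower under Keniry2022, by -0.27 at p10 (adjusted p = 0.043, limma) and -0.29 at p20 (0.0354), and at Mulas2019 p10, by -0.18 (0.0418), but not at Mulas2019 p20 (-0.12, 0.127). Snhg12 was not called under Keniry2022, at -0.18 (adjusted p = 0.196, limma) and -0.31 (0.0635). Snhg12 was called higher than p0 at Mulas2019 p10, by 0.55 (adjusted p = 0.00193, limma), and differed by 0.21 at Mulas2019 p20 (0.0758). These fits assume that the single p0 library left varies like the other groups.

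Without p0 replicate 2, all 3 members were called lower than p0 in all 4 comparisons (limma), where 64.3%, 66.5%, 71.8% and 71.1% of all features were called in the same order. Snhg12 at Mulas2019 p10 was then lower by -0.38 (adjusted p = 0.00276, limma), the opposite sign to that against p0 replicate 2. Whether Snhg12 rose or fell under Mulas2019 thus depends on the p0 library it is set against. Under Keniry2022 each member was below both p0 libraries in all 4 libraries. The share of all features in that order was not computed, so it does not set the members apart.

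Snhg3 shares its locus with other genes, which bears on what its row counts. Gm17300, on the opposite strand, covers 705 of its 986 exon bases (71.5%), and Rcc1, the chromatin-bound exchange factor for the GTPase Ran, lies on the same strand and shares 135 (13.7%). The strand setting of the counting is not given in the sources used here, so reads of Snhg3 and Gm17300 cannot be told apart with confidence. In the pooled comparison Gm17300 was lower under Keniry2022, by -0.23 (adjusted p = 0.000719, limma), whereas Rcc1 was higher, by 0.25 (0.000221). Gm17300 also had its highest value in p0 replicate 1 (6.0, against 4.62 to 4.91 in the other 9 libraries), as Snhg3 did. Rcc1 was at 5.69 to 5.76 in the Keniry2022 libraries and 5.45 to 5.52 in the Mulas2019 libraries, so the 2 genes transcribed from overlapping spans in the same direction moved in opposite directions. Phactr4, a regulator of protein phosphatase 1 and actin that lies 2237 bases away, was lower under Keniry2022, by -0.33 (adjusted p = 0.00217, limma).

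The Gas5 span overlaps that of Zbtb37, a zinc finger gene on the opposite strand, by 428 bases without shared exon bases. Zbtb37 was not called (-0.05, adjusted p = 0.688, limma). Trnau1ap, a factor of selenocysteine incorporation 739 bases from Snhg12, was not called between methods (0.11, adjusted p = 0.102, limma). It was lower than p0 at Mulas2019 p10, by -0.79 (adjusted p = 0.0451, limma), and p20, by -0.91 (0.0345), where Snhg12 was not called. In these 2 comparisons 33% and 29.3% of all features were called. Trnau1ap was at 4.64 and 3.71 in p0 replicates 1 and 2, so its differences from p0 lean on replicate 1. Neither Zbtb37 nor Trnau1ap was thus called in the direction of its host in the pooled comparison.

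**Figure D3:**
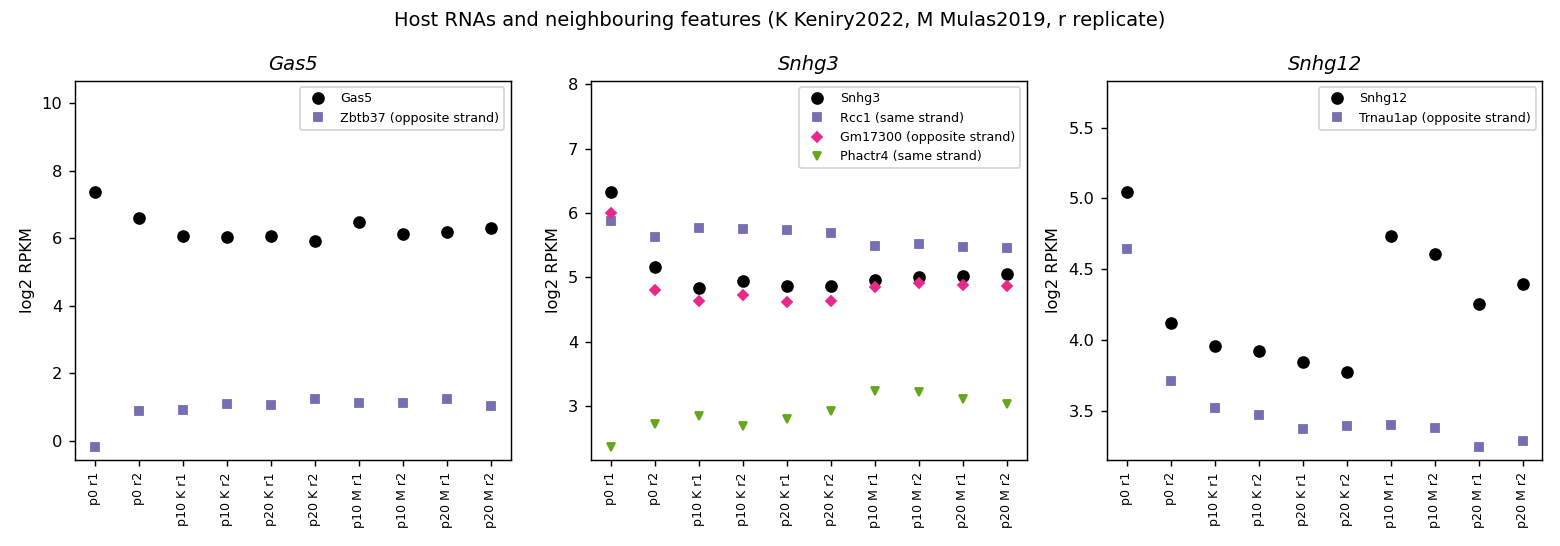
log2 RPKM (y axis) of each host RNA (black circles) and of the neighbouring features named in the text (coloured), in the 10 libraries (x axis, K for Keniry2022, M for Mulas2019, r for replicate). Gm17300 follows Snhg3 through the 10 libraries, Rcc1 is higher in the Keniry2022 than in the Mulas2019 libraries, and Trnau1ap lies at 3.24 to 3.52 in all 8 libraries after p0.

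Other noncoding snoRNA hosts, from a list of 15, had 8 rows, 6 of them found by their coordinates under older names. Of the 7 tested in the pooled comparison, 5 were lower under Keniry2022, 1 was higher and 1 was not called, with a median difference of -0.43 against -0.003 over all features. Of all features tested, 25.5% were called lower in this comparison. Snhg11, which GENCODE gives as protein-coding, was lower by -1.15 (adjusted p = 0.000133, limma). It was at 0.86 to 1.07 log2 RPKM in the Keniry2022 libraries and 1.79 to 2.39 in the Mulas2019 libraries, with both p0 libraries below (0.52 and 0.16), so its order differs from that of the 3 members. Snhg17 was lower by -0.49 (adjusted p = 0.000396, limma), at 2.50 to 2.68 against 2.95 to 3.25.

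Zfas1, a host of box C/D guides with a 5′TOP start, was at 4.52 to 4.72 log2 RPKM under Keniry2022, 4.91 to 5.28 under Mulas2019, and 6.06 and 5.07 at p0. Its difference was -0.49 (adjusted p = 0.000905, limma). As in Snhg12, p0 replicate 1 was its highest library. Its p0 replicate 2 lay among its Mulas2019 libraries, whereas that of Snhg12 lay below them. Dancr was lower by -0.43 (adjusted p = 0.00447, limma), with libraries at 1.86 to 2.20 and 2.25 to 2.60. The host that was higher under Keniry2022, named after its values were seen, was Epb41l4aos (0.17, adjusted p = 0.032, limma), and that call was lost in 9 of 18 alternatives. p0 replicate 1 was the highest of the 10 libraries for 6 of these 8 hosts, the untested host among them, and for 35.3% of all features tested.

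**Figure D4:**
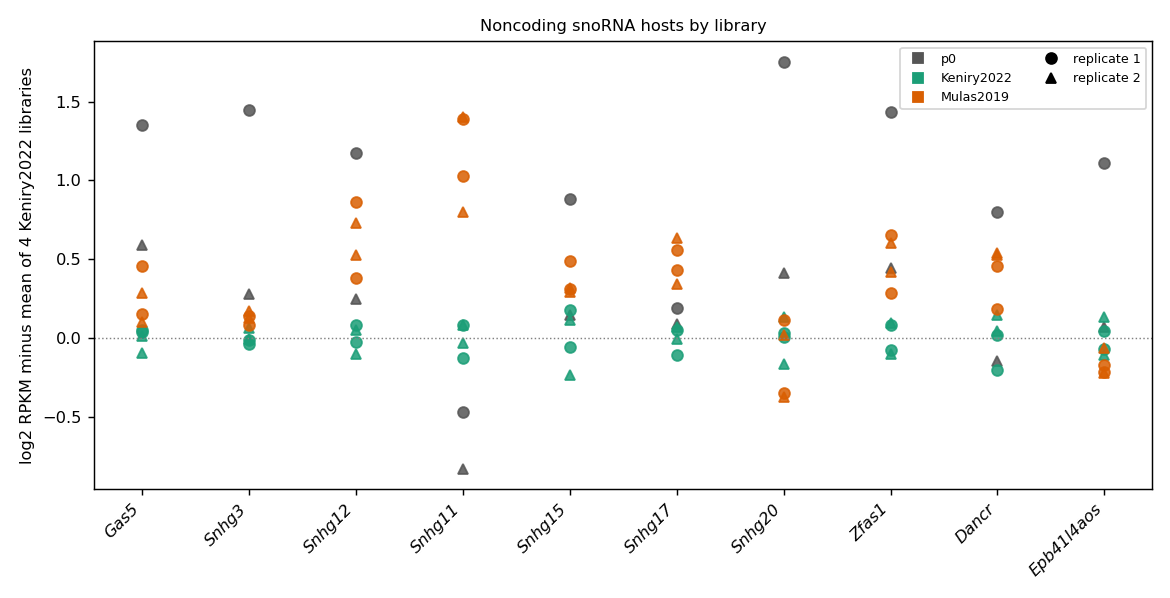
log2 RPKM of the 3 members and of 7 other noncoding snoRNA hosts (x axis) in the 10 libraries, each minus the mean of the 4 Keniry2022 libraries (y axis), coloured by group, with circles for replicate 1 and triangles for replicate 2. Mulas2019 libraries lie above the Keniry2022 libraries for all 3 members and for Snhg11, Snhg15, Snhg17, Zfas1 and Dancr, and p0 replicate 1 is the highest point except in Snhg11 and Snhg17.

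Genes that act on snoRNAs or host RNAs, or share the 5′TOP start, were counted in the same pooled comparison. Of all 11654 features tested there, 3024 were higher under Keniry2022 and 2976 were lower. Of 19 proteins of snoRNA particles and their assembly, 12 were higher under Keniry2022, 1 (Nop56, named after its values were seen) was lower and 6 were not called, with a median of 0.16. Nhp2, a core protein of box H/ACA particles, was higher by 0.59 (adjusted p = 1.9e-05, limma), and Shq1, which chaperones dyskerin during its assembly, by 0.28 (0.000195). Nop58 and Nhp2l1, core proteins of box C/D particles, were higher by 0.40 (adjusted p = 0.000352, limma) and 0.38 (5e-05). The call of Nop56 (-0.11) was lost in 13 of 18 alternatives.

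Of 22 5′TOP mRNAs other than those of ribosomal proteins, 13 were higher under Keniry2022, 1 (Eef2, named after its values were seen) was lower and 8 were not called, with a median of 0.14. Eef1d and Eef1b2, exchange factors for elongation factor 1A, were higher by 0.38 (adjusted p = 4.37e-05, limma) and 0.31 (1e-04), the histone chaperone Nap1l1 by 0.33 (5.7e-05) and Naca, of the nascent polypeptide complex, by 0.33 (0.000269). With quantile normalization the list split into 8 higher and 5 lower, so the imbalance of the list depends on the scaling. Of 18 NMD factors 7 were higher and 5 lower, with a median of 0.06: Gspt1 (release factor eRF3), Magoh and Rbm8a (exon junction proteins) were higher by 0.25, 0.27 and 0.34, and Dhx34 was lower by -0.41 (adjusted p 0.000257 to 0.000816, limma).

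Protein-coding genes with a snoRNA inside their span on the same strand numbered 218, of which 175 were tested. Of these, 57 were higher under Keniry2022, 39 lower and 79 not called, with a median of 0.03, against 3024, 2976 and 5654 over all features. Odc1, the rate-limiting enzyme of polyamine synthesis, was higher by 0.37 (adjusted p = 4.73e-05, limma) and Tsr1, a ribosome maturation factor, by 0.30 (8.08e-05). With quantile normalization the split was 36 higher and 48 lower. The listed noncoding hosts thus had medians of -0.25 (3 members) and -0.43 (7 others), while the protein-coding hosts stood near the median of all features. The difference between the lists was not tested. They are not cleanly separate, since the 7 others include Snhg11, which GENCODE gives as protein-coding. The protein-coding hosts include Rcc1, whose span on the same strand holds the Snora73 snoRNAs of Snhg3.

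**Figure D5:**
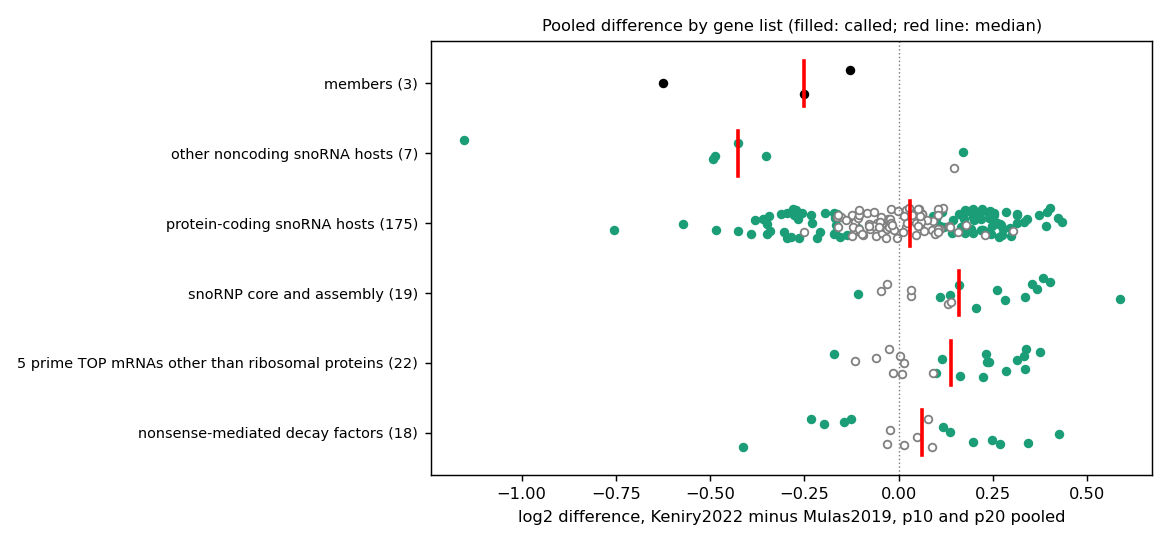
log2 difference, Keniry2022 minus Mulas2019 with p10 and p20 pooled (x axis), of each tested gene in 6 lists (y axis, number tested in brackets; points are spread vertically only for legibility). Filled points passed an adjusted p under 0.05 and red lines mark medians, which are -0.25 for the members, -0.43 for other noncoding hosts, 0.03 for protein-coding hosts, 0.16 for snoRNA particle proteins, 0.14 for 5′TOP mRNAs and 0.06 for NMD factors.

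Features whose pattern was most like that of a member were ranked by Pearson correlation over the 10 libraries, among 6198 features with a mean log2 RPKM of at least 3. For Gas5 these were Sycp3 (r = 0.981) and Acot13 (r = 0.977), and without the 2 p0 libraries r was 0.875 and 0.83. For Snhg3 they were 1110001J03Rik (r = 0.986, and 0.45 without p0) and the overlapping Gm17300 (r = 0.982, and 0.927). For Snhg12 they were Xrcc1 (r = 0.963, and 0.936) and 1110038B12Rik (r = 0.951, and 0.942), a long noncoding RNA whose own GENCODE span contains a snoRNA, Snord52. The likeness of 1110001J03Rik to Snhg3 rests on p0, while the features most like Snhg12 follow it through the other 8 libraries as well.

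Among the members themselves, r over the 10 libraries was 0.931 for Gas5 with Snhg3, 0.777 for Gas5 with Snhg12 and 0.709 for Snhg3 with Snhg12. Without p0 these were 0.558, 0.847 and 0.714. All these correlations share the same 10 libraries, in 5 groups of 2, and are given as descriptions.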

How the data were processed

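RNA was sequenced from 10 mESC libraries (single-end). The authors trimmed reads and aligned them to mm10 with HISAT2 per the study, whereas the submitters' processing notes name TopHat2 2.0.12; they quantified features in SeqMonk. The deposited values are log2, named as log CPM, but the authors' floors for 0 reads (entered as 0.9 reads) vary with feature length, so they are log2 RPKM. Reads per library and member were recovered from these floors (each within 0.05 of a whole read). They are not independent molecules. For the annotation release and strand setting, the value is not given in the sources used here.

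Identity was taken from name, span and strand, since the rows of Gas5 and Snhg3 carry the identifier of an overlapping gene. Exon lengths recovered were 3760 (Gas5), 986 (Snhg3) and 1626 bases (Snhg12, 2402 in GENCODE vM21).

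Tests used limma 3.58.1 (R 4.3.3) on the deposited log2 values: moderated, intensity trend, two-sided, Benjamini-Hochberg adjustment over all features with a value above 0 in at least 50% of the libraries fitted, threshold 0.05, no pseudocount. limma took the place of the authors' edgeR and voom because counts were not used. The pooled comparison had 4 libraries per method and no block; the others used 1 model of 10 libraries in 5 groups. Scripts were tested on simulated data. Members and lists were chosen with earlier results of these data known. Named were all members, features within 5 kb (1 is not reported here), at most 4 genes per list (smallest p in the pooled comparison) and the 2 features most correlated with each member. The 2 libraries of a group come from the study's 2 lines. In the model of 5 groups p-values thus measure the spread between these lines, each sequenced once per group. That model took the gaps within the 5 groups as independent, although each lies between the same 2 lines. In the pooled comparison the spread also includes differences between p10 and p20. There the 4 libraries of a method were taken as independent although they are 2 lines at 2 passages.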

Additional observations from a re-analysis of the deposited data

How the results depend on the processing

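The direction of every member was negative in the pooled comparison of methods under all 18 alternatives tried on it, and the call of Snhg12 was kept in each. Gas5 and Snhg3 lost theirs in the model of all 10 libraries and in the replicate block without p20 Keniry2022 (adjusted p 0.102 and 0.0843, limma). Each of these fits called 1 of 3 members, and they called 19.2% and 38.9% of all features. Left-out libraries gave 3 members called in each pooled fit, with 43.6% to 49.3% of all features. In the model of 5 groups a left-out library leaves 1 in its group, so only differences are given here. At p10 these ran from -0.795 to -0.666 for Snhg12, -0.425 to -0.071 for Gas5 and -0.141 to -0.043 for Snhg3. At p20 they ran from -0.59 to -0.448, -0.319 to -0.184 and -0.179 to -0.149 in the same order. Fits against p0 without each p0 library are described above. Without p0 in the model, 1 member was called at p10 and 2 at p20 and in the groups matched in days. The same model called 48.3%, 36.7% and 43.4% of all features. Library quality weights gave 1, 1 and 2 members, with 50.9%, 35.3% and 40% of all features. Quantile normalization gave 1 for the groups matched in days, with 6.66% of all features. For Mulas2019 p10 against p0, equal library medians and the replicate block each gave 1 called, with 32.6% and 30.9% of all features. For Mulas2019 p20 against p0, the call of Gas5 was lost in 13 of 17 alternatives, with 0 called without a filter on low values, with quantile normalization, without the intensity trend and with quality weights. Those settings called 15%, 27.5%, 27% and 0% of all features, in the order given. The cause was not tested.

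Signs turned for Snhg12 against p0 with left-out libraries, from -0.38 (without p0 replicate 2) to 0.55 (without p0 replicate 1) at Mulas2019 p10 and from -0.72 to 0.21 at p20. They turned for Zbtb37 in the pooled comparison, which was not called (0.109 with quantile normalization, -0.099 to 0.005 with left-out libraries).

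Samples of one number did not pair throughout: same-number correlations of the deviations were 0.171 to 0.63 between groups other than p20 Keniry2022 and -0.118 to -0.698 with it. The replicate block kept 3 members called in the pooled comparison (5749 features against 6000) and changed no other member's call but that of Gas5 at Mulas2019 p10. Blocks with the p20 Keniry2022 numbers crossed were chosen after seeing the data. They gave 3 members called in the pooled comparison (49.6% of all features) and 1 at Mulas2019 p20 (25.9%). At Mulas2019 p10 they gave 0 (29.8%), so the call of Gas5 there depends on the pairing used. Over all features, the pooled count was 2225 in the model of all 10 libraries.

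With 2 libraries per group, differences as large as those of Gas5 and Snhg3 between methods lie within the intervals at a single passage, so a missed call there does not show equal levels. Over the 18 alternatives, lists counted 2 to 5 lower noncoding hosts, 6 to 13 higher snoRNA particle proteins, 3 to 13 higher 5′TOP mRNAs, 1 to 7 higher and 1 to 5 lower NMD factors, and 12 to 60 higher and 10 to 48 lower protein-coding hosts. The lowest of these counts came from the model of all 10 libraries.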
